A study of Mus musculus with 12 samples.

Results

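The data described here are the transcriptomes of pancreatic islets from female Rnf20 knockout mice and their female controls, taken from the deposited female table. Its 24631 genes were reduced to the 18142 whose mean over the 6 female libraries was at least 10 normalized counts, and the fold changes were computed anew for these genes. Just inside this limit was Atp10b at 10.0014 normalized counts. Rnf20 codes for a RING ubiquitin ligase that works in a heterodimer with Rnf40. The heterodimer attaches a single ubiquitin to histone H2B along the bodies of transcribed genes, a mark known for its links to elongation by RNA polymerase II and to histone methylation. Pdx1, whose promoter drives the Cre used here, is a transcription factor of beta cells that part of the delta cells and the pancreatic progenitors also express. In these mice Cre is fused to an oestrogen receptor and acts once tamoxifen is given.

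The knockout group held 3 libraries of genotype Rnf20 F/F; Pdx1 Cre ER and the control group 3 libraries of genotype Rnf20 Flox Control. All were from females, out of 12 libraries of both sexes. Every mouse, control or knockout, had received 5 tamoxifen gavages of 150 ug per g at 4 weeks of age, and the age at islet isolation is not given in the sources used here. The control labels name no Cre, so an effect of the Cre transgene cannot be told apart from that of the deletion. Islets were freed with collagenase-P and picked by hand, and their RNA contains all islet cell types. Fewer cells of a type and less RNA per cell cannot be told apart in such bulk samples. The labels do not say that each library is 1 animal, so the p-values measure the spread between these libraries.

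Rnf20 itself (ENSMUSG00000028309) was at 1877, 2000 and 1927 normalized counts in knockout islets, against 3589, 4032 and 4340 in control islets. The groups did not overlap, and the log2 fold change was -1.04 (limma, adjusted p = 6.35e-04). The deleted exons are not given in the sources used here, and the counts cover the whole gene. Assigned reads ranged from 32557635 to 41739999 in knockout libraries and from 35489685 to 41925150 in control libraries. The first principal component of the tested genes (44.8% of the variance) separated all knockout from all control libraries, and the second set knockout 3 and, less far, control 2 apart. Fits without a library in turn are given where they change a count or a call. The 10 islet endocrine markers were all present, Ins2 highest, and their summed level was 5188200 to 5611880 normalized counts in knockout islets, against 7178260 to 9498320 in control islets.

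Exocrine and blood markers also varied between libraries. The summed level of 17 acinar genes was 564943 to 786376 normalized counts in knockout islets and 791296 to 2209450 in control islets. None of the 17 was called, but 15 were called lower once control 2 was left out. With DESeq2 13 were called lower and with edgeR 2. The 10 lymphocyte markers summed to 507 to 5922 normalized counts in knockout islets and 2167 to 43356 in control islets, and the 5 erythrocyte markers to 1771 to 9955 in knockout islets and 265 to 3639 in control islets. None of these lists had its markers at 0. Mitochondrial transcripts took 3.47% to 3.65% of reads in knockout islets and 2.02% to 2.55% in control islets. The part of these shifts in the results below was not tested.

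At an adjusted p below 0.05, 3745 genes were called in knockout islets, 20.6% of those tested. Of these, 1796 were higher (9.90% of those tested) and 1949 lower (10.7%). The median absolute log2 fold change of the called genes was 0.72. At least 2-fold differences were seen in 613 higher and 505 lower genes, at least 4-fold differences in 140 and 69, and at least 8-fold differences in 35 and 12. Single libraries moved these counts: leaving out knockout 2 left 1847 calls, leaving out control 2 left 2069 and leaving out knockout 1 left 2421. Leaving out knockout 3 left 1149 higher genes. The calls of 1654 genes (710 higher and 944 lower) held in all 6 fits without a library. The groups did not overlap for 7133 genes (39.3%).

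Long genes were called higher more often than short ones. Of 753 protein-coding genes whose annotated span was under 3000 bp, 5.31% were higher and 12% lower in knockout islets. Of 481 genes of 300000 bp or more, 18.1% were higher and 9.15% lower. The share of genes called higher grew at each step in between, through 7.85%, 9.30%, 12.3% and 16.4%. The median log2 fold change was -0.12 in the shortest class and 0.09 in the longest. Without control 1 the shares called higher were 8.37% in the shortest and 13.7% in the longest class, without control 2 they were 3.19% and 11.4%, without knockout 2 2.92% and 9.56%, and without knockout 3 3.98% and 11.9%. The share called lower did not keep its contrast without control 1, at 9.96% in the shortest and 10.4% in the longest class. In the other fits without a library it was smaller in the longest class, as with 7.04% and 6.44% without knockout 2. The median level was 306 normalized counts in the shortest and 349 in the longest class, while the classes between lay at 586 to 1042.

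Calls of lower genes also grew with the level. They made up 2.40% of the genes with a mean of 10 to 30 normalized counts and 27.1% of the 428 genes at 10000 or more. The share called higher was 5.08% in the lowest class and 9.81% in the highest, and it peaked at 12.8% at 1000 to 3000 normalized counts. The median log2 fold change was 0.05 in the lowest class, -0.18 in the highest and between -0.03 and 0.03 in the others. In counts, the lowest class held 70 lower and 148 higher genes of 2916, and in the fits without a library 22 to 64 lower (22 without control 2, 29 without knockout 2, 39 without knockout 1) and 48 to 145 higher (48 without knockout 2, 64 without knockout 1 or knockout 3, 78 without control 2). The highest class held 116 lower and 42 higher genes, with 86 to 119 lower and 18 to 48 higher in those fits (18 without knockout 2, 21 without control 2, 22 without knockout 1, 28 without knockout 3). Among the 10 highest genes, Iapp, the amyloid peptide released with insulin, fell by 1.48 on the log2 scale and Ins1 by 1.07, whereas mt-Co1 rose by 0.55, a call lost without knockout 2. Ins1 lay at 694651, 751551 and 666457 normalized counts in knockout islets and at 1936070, 1394310 and 1194290 in control islets. Under quantile scaling, which gives the libraries 1 common distribution, Ins1 differed by 0.00 and was not called, since it ranked alike in all libraries. Ins2 had a log2 fold change of -0.37 and was not called (adjusted p = 0.166).

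Of 591 X-linked genes, 18.4% (109 genes) were called lower and 5.41% (32 genes) higher in knockout islets. On the autosomes together 10.5% were lower and 10.02% higher, and on no single autosome did the share called lower exceed 12.4%. The median log2 fold change of X-linked genes was -0.11, against -0.01 for autosomal genes. Without control 2, 70 X-linked genes were lower and 18 higher, and without knockout 2, 69 were lower and 13 higher. Without knockout 1 these numbers were 79 and 19, and without knockout 3 they were 83 and 20. X-linked genes named for their fall, chosen after their values were seen, held their calls in all fits without a library. The kinase gene Stk26 had 1636, 1930 and 1879 normalized counts in knockout islets and 4733, 5755 and 6733 in control islets. Syp, which codes for the vesicle protein synaptophysin, had 3576, 3703 and 3620 in knockout islets and 10602, 8894 and 7318 in control islets. Tceal8 had 1540, 1562 and 1455 in knockout islets and 4814, 4855 and 4306 in control islets. All 3 genes fell without overlap, with log2 fold changes of -1.65, -1.28 and -1.61. In the other direction, Igsf1, which codes for a membrane glycoprotein known from the pituitary, rose by 1.81 and the aminopeptidase gene Xpnpep2 by 4.75, to 359, 417 and 308 normalized counts in knockout islets, against 12.4, 16.8 and 8.94 in control islets.

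**Figure D1:**
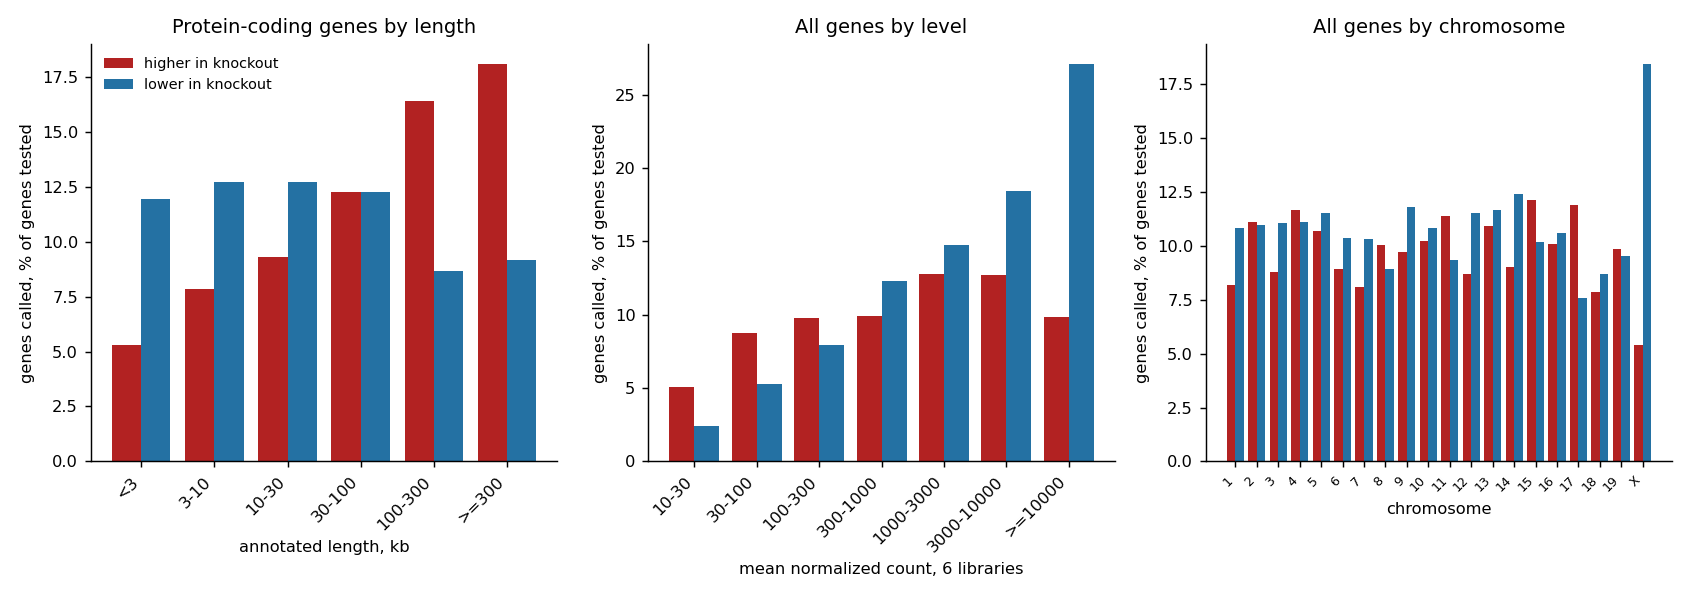
Share of tested genes called higher (red) or lower (blue) in female knockout islets, in percent, by annotated gene length (protein-coding genes), by mean normalized count and by chromosome. The share called higher grows from 5.31% to 18.1% over the length classes, the share called lower from 2.40% to 27.1% over the level classes, and chromosome X has 18.4% called lower.

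The imprinted region between Dlk1 and Dio3 on chromosome 12 changed in opposite directions along its length. In mice, Dlk1, Rtl1 and Dio3 are expressed from the paternal copy. Meg3, Rian and Mirg are non-coding RNAs of the maternal copy that also host many microRNAs and small nucleolar RNAs. These 9 members were listed after their values had been seen. Of the 9, 1 rose, 6 fell and 2 were not called, and the 7 calls held in all fits without a library, although that of Meg3 was lost under quantile scaling. The mature sequences of microRNAs from the precursor genes with the largest falls, here and on chromosome 11, are given from RefSeq (GRCm38.p6, plus strand) because miR-132-3p and miR-212-3p share their seed. Bases 2 to 8, the seed, are in capitals.
miR-132-3p (chr11:75173723-75173744): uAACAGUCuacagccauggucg
miR-212-3p (chr11:75173443-75173464): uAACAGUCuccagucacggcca
miR-409-3p (chr12:109743204-109743225): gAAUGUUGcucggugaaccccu
miR-541-5p (chr12:109742422-109742446): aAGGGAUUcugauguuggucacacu

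Dlk1 (ENSMUSG00000040856), a transmembrane protein of the Notch ligand family, had 1478, 1387 and 1828 normalized counts in knockout islets and 387, 388 and 474 in control islets. The groups did not overlap, and its 3.74-fold rise was 1.90 ± 0.14 on the log2 scale (standard error, adjusted p = 3.55e-04). Meg3 had 33891, 36504 and 36450 normalized counts in knockout islets, against 69338, 67300 and 69655 in control islets, and fell by 0.95 on the log2 scale, or, under quantile scaling, had a log2 fold change of -0.34 and was not called (limma, adjusted p = 0.0860). Rian had 15945, 16030 and 18111 in knockout islets, against 38958, 48403 and 44859 in control islets, and fell by 1.40. Mirg had 985, 922 and 965 in knockout islets, against 3267, 3384 and 2914 in control islets, and fell by 1.73 (adjusted p = 1.82e-04). The groups were separate for each of these non-coding RNAs, and the fall was larger with distance from Dlk1 in the order Meg3, Rian, Mirg. Rtl1, the retrotransposon-derived gene that sits antisense to microRNAs of the region, fell by 1.15 at 48.7 to 55.8 normalized counts in knockout islets and 110 to 126 in control islets. Dio3, the deiodinase that inactivates thyroid hormone, had 127, 59.7 and 82.5 in knockout islets and 51.8, 164 and 50.3 in control islets, which overlap (adjusted p = 0.840).

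In male islets the log2 fold changes were 1.20 for Dlk1, -0.63 for Meg3, -0.88 for Rian and -1.07 for Mirg. None of these effects was called as differing by sex.

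Among 23 tested microRNA genes, 6 were lower (26.1%) and 1 higher (4.35%) in knockout islets, beside 10.7% and 9.90% of all genes. The values are reads assigned to the precursor's span in a library of longer RNA, and they do not measure the mature microRNA. Mir409 had 5.22, 3.32 and 5.83 normalized counts in knockout islets and 46.6, 48.4 and 47.0 in control islets (log2 fold change -3.09). Mir541 had 4.35, 3.32 and 9.17 in knockout islets and 29, 35.8 and 33.5 in control islets (-2.45). Both lie inside Mirg, with which they share reads. Mir132 had 8.70, 12.2 and 8.33 in knockout islets, against 65.2, 60.0 and 58.1 in control islets (-2.55). Mir212 had 8.70, 17.7 and 2.50 in knockout islets, against 97.3, 118 and 82.7 in control islets (-3.53). These neighbours, known in neurons as products of 1 transcript induced through CREB, lie inside the non-coding gene 1700016P03Rik. That host averaged 105 normalized counts in knockout islets and 763 in control islets. Mir23b fell by 1.24, a call lost without control 1, control 2, knockout 1 or knockout 2. Mir7688 fell by 0.82, a call lost without control 2, knockout 1 or knockout 2. Mir5125 rose by 0.81, and its span lies inside Srrm2, which averaged 25995 normalized counts in knockout islets and 20523 in control islets. All reads of Mir5125 may thus belong to Srrm2, as those of Mir23b may to Aopep.

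**Figure D2:**
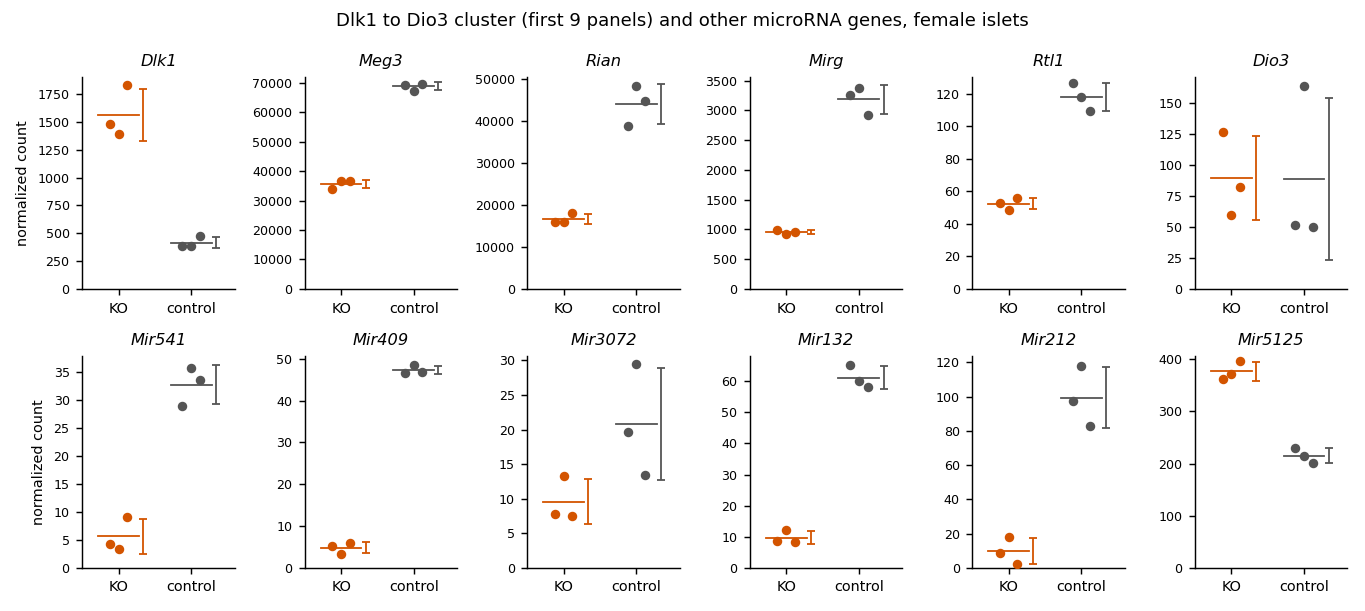
Normalized counts per library of 9 genes of the Dlk1 to Dio3 region and of Mir132, Mir212 and Mir5125, with knockout (KO) libraries left and control libraries right; lines are means, bars SD, n = 3 per group, and every axis starts at 0. Dlk1 and Mir5125 are higher in all knockout libraries, Dio3 and Mir3072 do not separate or were not called, and the rest are lower in all knockout libraries.

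Genes for entry into the secretory pathway fell together. Proteins bound for secretion are drawn into the endoplasmic reticulum (ER) through the Sec61 channel by the signal recognition particle. They are trimmed by signal peptidase and carried to the Golgi in COPII vesicles, while COPI vesicles and KDEL receptors return escaped residents. Of 33 listed genes of ER translocation and signal peptidase, 32 were tested, and 20 were lower (62.5%) and 0 higher in knockout islets, with a median log2 fold change of -0.54 (that of all tested genes was -0.01). Without knockout 1 and without knockout 2, 13 were lower, and without knockout 3, 12. Of 42 genes of vesicle transport between ER and Golgi, all tested, 24 were lower (57.1%) and 1 higher, with a median of -0.45. In the fits without a library 19 to 25 of them were lower. The higher gene was Sec24b, a COPII cargo adaptor (log2 fold change 0.38), whose call held only without control 3. Among all tested genes 10.7% were lower and 9.90% higher. Of those at 3000 to 10000 normalized counts, where the median levels of both lists lie (6480 and 6344), 18.4% were lower. Under quantile scaling 18 genes of the translocation list and 20 of the transport list were lower, with medians of -0.44 and -0.30.

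Spcs3, a subunit of signal peptidase, had 5839, 5836 and 5573 normalized counts in knockout islets and 15628, 15036 and 13810 in control islets. The groups were far apart, and its log2 fold change was -1.36 ± 0.09 (standard error, adjusted p = 2.20e-04), a 2.58-fold fall. Ostc, a subunit of the oligosaccharyltransferase, fell by 0.95, and Ssr2, of the translocon-associated complex, by 0.87. Sec24d, a COPII cargo adaptor like Sec24b, had 3499, 3296 and 3466 in knockout islets and 9963, 11183 and 9706 in control islets, and its log2 fold change was -1.59 ± 0.09 (standard error, adjusted p = 1.82e-04). Arfgap3, which acts on the Arf1 of COPI coats, had 2602, 2526 and 2511 in knockout islets and 5846, 5801 and 5181 in control islets and fell by 1.14. The KDEL receptor gene Kdelr2 had 3793, 4018 and 3805 in knockout islets and 9433, 9160 and 6949 in control islets and fell by 1.12. Surf4, a cargo receptor of the ER, fell by 0.92. In male islets the log2 fold changes were -1.45 for Spcs3, -1.62 for Sec24d, -1.38 for Arfgap3 and -1.43 for Kdelr2.

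Promoters were read from RefSeq (GRCm38.p6, 250 bases before to 50 after the start) for the 12698 tested genes that matched by symbol. The motif TGACGTGG, at which the unfolded-protein factors XBP1 and ATF6 are known to bind, was searched on both strands and was chosen after the values had been seen. It was in 1.04% of these promoters, in 0.964% of those of genes called higher and in 3.16% of those of genes called lower. It was in 8 of the 37 promoters of the ER to Golgi list (21.6%) and in 0 of 24 of the ER translocation list. Of these 8 genes, 7 were called lower, Arf1 was not, and the call of Stx5a held only without control 3. Windows of 40 bases around the motif are given on the gene's strand for 4 of the 7 called genes. Only matches wholly before the start were drawn, which left out the called genes Copb2, Sec23a and Stx5a. The motif (or its reverse complement CCACGTCA) is in capitals.
Sec24d (chr3:123267454-123267493, plus strand, log2 fold change -1.59): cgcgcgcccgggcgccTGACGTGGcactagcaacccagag
Sec16b (chr1:157506736-157506775, plus strand, -0.90): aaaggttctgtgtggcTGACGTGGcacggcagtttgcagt
Copb1 (chr7:114254685-114254724, minus strand, -0.68): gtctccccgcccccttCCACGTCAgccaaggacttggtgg
Kdelr3 (chr15:79516362-79516401, plus strand, -0.64): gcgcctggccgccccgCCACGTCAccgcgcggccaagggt
In these 4 genes the match begins 26, 44, 28 and 30 bases before the start, and in Arf1, which was not called, 84 bases before it. A match describes letters only and does not show that a factor binds there.

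Several transcripts known from autonomic neurons fell steeply. Pancreatic ganglia are small clusters of parasympathetic neurons next to islets. They make acetylcholine with choline acetyltransferase (Chat), load it with Slc18a3, take choline back up with Slc5a7 and release vasoactive intestinal peptide (Vip). A list of 24 such genes was written after the values had been seen, and 23 were tested. Of these, 16 were lower (69.6%) and 0 higher in knockout islets, with a median log2 fold change of -1.81, and 13 to 17 were lower in the fits without a library. Among all tested genes 10.7% were lower and 9.90% higher. The counts describe the listed genes only, which were chosen with their values known. Their summed level was 9089 to 10114 normalized counts in knockout islets and 15624 to 19887 in control islets, and none was at 0 throughout. The beta cell also expresses some of them, such as Ret and Uchl1.

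Vip had 246, 186 and 211 normalized counts in knockout islets and 1896, 2192 and 1201 in control islets, a 7.99-fold fall (-3.0 on the log2 scale with a standard error of 0.23, adjusted p = 3.95e-04). Slc5a7 had 40.0, 34.3 and 27.5 in knockout islets and 340, 462 and 277 in control islets (log2 fold change -3.35). Phox2a, a factor that specifies autonomic neurons, had 29.6, 22.1 and 12.5 in knockout islets and 173, 172 and 97.3 in control islets (-2.76). These 3 genes were at a small share of the control level in every knockout library. The nicotinic receptor subunit gene Chrna3 fell by 2.26, the intermediate filament gene Prph by 2.17, Slc18a3 by 2.11, neuronal nitric oxide synthase (Nos1) by 2.05, Stmn2 by 1.96, acetylcholinesterase (Ache) by 1.88 and Nefl by 1.81. Chat fell by 2.00, a call lost without control 2 or knockout 2. Among genes shared by most neurons, Tubb3 had a log2 fold change of 0.01 and Uchl1 of 0.04, and neither was called. Chrnb4, whose product pairs with that of Chrna3, had a log2 fold change of -0.22 and was not called. Phox2a overlaps Inppl1, which rose by 1.04. Nefl overlaps Nefm, another neurofilament gene, which averaged 1878 normalized counts in knockout islets and 1249 in control islets. Slc18a3 and Chat, which both fell, overlap each other and may share reads. The strand setting of the counting is not stated, so reads of these overlaps cannot be assigned with certainty.

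Sox10, a factor of the Schwann cells that also belong to nerves, had 129, 98.5 and 187 normalized counts in knockout islets and 185, 137 and 85.0 in control islets. These values overlap, and Sox10 was not called. The summed level of 7 Schwann and glial genes, listed after the values had been seen, was 967 to 1069 normalized counts in knockout islets and 864 to 895 in control islets, which do not overlap. In male islets the log2 fold changes of Vip, Slc5a7, Phox2a and Prph were -3.17, -3.06, -3.11 and -2.27.

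**Figure D3:**
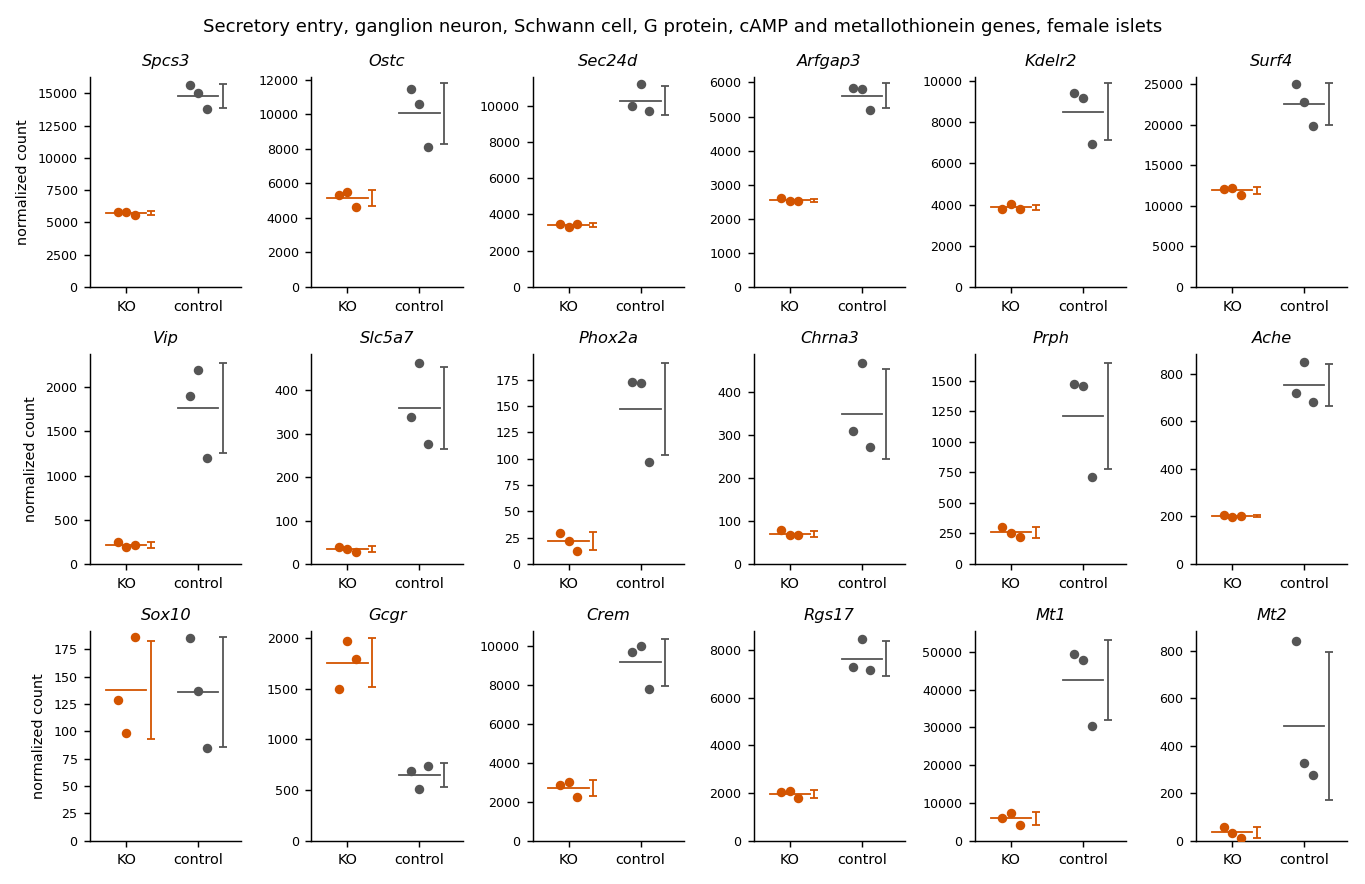
Normalized counts per library of 18 genes, with knockout (KO) libraries left and control libraries right; lines are means, bars SD, n = 3 per group, and every axis starts at 0. The 6 secretory genes of the first row and the 6 neuronal genes of the second row are lower in all knockout libraries, whereas Sox10 overlaps and Gcgr is higher in all knockout libraries.

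Peptide genes changed in both directions. Of 29 tested neuropeptide and gut hormone genes out of 40 listed, 4 were higher and 4 lower. At 13.8% each, this is close to the 9.90% and 10.7% of all genes, and the members are given for their own values. Cck, the gut hormone cholecystokinin, had 238, 99.6 and 138 normalized counts in knockout islets and 24.9, 31.6 and 30.2 in control islets, a 5.04-fold rise (log2 fold change 2.33, adjusted p = 0.00280). Pthlh, parathyroid hormone-like hormone, rose by 1.65 and Cartpt by 1.25. Gast, which codes for gastrin and marks fetal islets, rose by 1.70, a call lost without knockout 2. Grp, the gastrin-releasing peptide of nerves, was at 0.87, 0 and 0 in knockout islets and at 28, 15.8 and 66 in control islets, so that it was nearly absent from knockout libraries. Ucn3, the urocortin of mature beta cells, fell by 1.44. Npy fell by 1.84, a call lost without control 1, 2 or 3 or knockout 1.

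Genes of cyclic AMP (cAMP) signalling, through which incretins raise insulin release, were called in both directions, with 8 higher and 8 lower among 51 tested. At 15.7% each (and 5 higher genes without knockout 2), this is not far from the 9.90% and 10.7% of all genes. Crem, a CREB-family factor whose short forms restrain cAMP-driven transcription, had 2880, 3048 and 2251 normalized counts in knockout islets and 9704, 10044 and 7813 in control islets, a 3.38-fold fall (log2 fold change -1.76, adjusted p = 4.20e-04). The kinase gene Sik1, itself induced by CREB, fell by 1.08, the receptor gene Gpr119 by 1.09 and the phosphodiesterase gene Pde10a by 1.09. The orphan receptor gene Nr4a2, also induced by CREB, fell by 1.62. The glucagon receptor gene Gcgr had 1495, 1971 and 1795 in knockout islets, against 692, 512 and 741 in control islets, and rose by 1.44. The inhibitory G protein gene Gnai1 rose by 1.32, and the adenylyl cyclase genes Adcy1 and Adcy7 rose by 1.66 and 1.16. Rgs17, which shortens signalling by inhibitory G proteins, had 2057, 2094 and 1784 in knockout islets and 7295, 8472 and 7157 in control islets and fell by 1.95.

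Membrane transport genes were more often lower. Of 281 tested solute carrier genes out of 337 in the table, 52 were lower (18.5%) and 20 higher (7.12%). Without knockout 2 the lower genes numbered 33, and the higher ones numbered 8 without control 2, 9 without knockout 2 and 13 without knockout 3. The shares of all genes were 10.7% lower and 9.90% higher. Slc28a2, a concentrative nucleoside transporter, had 169, 216 and 131 normalized counts in knockout islets and 550, 1090 and 852 in control islets and fell by 2.24. Slc38a4, an imprinted amino acid transporter, had 7930, 8774 and 8326 in knockout islets and 18096, 22018 and 22064 in control islets and fell by 1.31. Slc17a4, a phosphate and anion transporter of gut, rose by 2.39, Slc22a2, a cation transporter of kidney, by 3.08, and Slc12a1, the chloride cotransporter of the renal loop, by 2.51. All 3 were low in control islets, at 2.11 to 38.9 normalized counts per library.

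Of 69 tested potassium channel subunit genes out of 86 in the table, 14 were higher (20.3%) and 10 lower (14.5%). Without control 2 and without knockout 2 these numbers were 9 and 6. Among all tested genes 9.90% were higher and 10.7% lower. Kcnk9, a 2-pore leak channel, had 111, 55.3 and 66.7 normalized counts in knockout islets and 1.04, 4.21 and 12.3 in control islets and rose by 3.86. Kcnt1, a sodium-activated channel, rose by 2.37, and Kcnj5, an inward rectifier opened by G proteins, by 1.96. Kcnh1 had 1572, 1300 and 1345 in knockout islets and 2696, 2853 and 3080 in control islets and fell by 1.04. Of 31 tested GABA and glutamate receptor genes out of 43 in the table, 9 were lower (29.0%) and 2 higher (6.45%). In the fits without a library 0 to 4 were higher (0 without knockout 2 and 4 without control 3). Gabrg3, a GABA-A receptor subunit, fell by 1.70 at 15 to 21 normalized counts in knockout islets and 52.5 to 76.8 in control islets. Grik5, a kainate receptor subunit, rose by 0.52, a call lost without knockout 2. Htr1d, a serotonin receptor that couples to inhibitory G proteins, had 171, 191 and 142 in knockout islets and 5.18, 7.37 and 4.47 in control islets, a 25.5-fold rise (log2 fold change 4.67, adjusted p = 1.96e-04).

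Corepressor genes were more often higher. These proteins are brought to promoters by transcription factors and carry deacetylases and demethylases. Of 35 tested, 14 were higher (40.0%) and 2 lower (5.71%), and 9 were higher without control 2 or without knockout 2. The shares of all genes were 9.90% higher and 10.7% lower. Rcor2, a scaffold of the LSD1 complex, rose by 2.7. Tle6 and Tle2, of the Groucho family, rose by 2.13 and 1.41. Tle2 had 1563, 1875 and 1975 in knockout islets and 785, 588 and 665 in control islets. Phf21b rose by 0.78. The lower genes were Zmynd8, a reader of acetylated histones, which fell by 0.90 (adjusted p = 5.54e-04), and Rcor3, which fell by 0.47, a call lost without knockout 1.

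Histone-modifying enzymes were called in both directions. Of 24 tested histone lysine demethylases 3 were higher (12.5%) and 5 lower (20.8%), beside 9.90% and 10.7% of all genes, with 1 higher without control 2 or knockout 2 and 3 lower without control 3 or any knockout library. Kdm2b, which brings a Polycomb complex to CpG islands, fell by 1.03, Kdm1b, a flavin-dependent demethylase, by 0.78, and Phf8 by 0.53, while Kdm7a rose by 0.85. Of 29 tested Polycomb genes 5 were higher (17.2%) and 3 lower (10.3%), with 3 higher without control 2, knockout 1 or knockout 2 and 1 lower without control 2 or any knockout library. Among the higher genes were Cbx7, which rose by 0.76, and Mtf2, which rose by 0.62. Hdac5, a class IIa deacetylase, rose by 0.61. Of 33 tested elongation genes 2 were higher (6.06%) and 3 lower (9.09%), both below the shares of all genes. The higher genes numbered 1 without knockout 2 or knockout 3 and 4 without control 3, and the lower ones 5 without control 1. The PAF1-associated gene Rtf1, whose product is known to recruit the H2B ubiquitination machinery in yeast, rose by 0.42, a call lost without knockout 2 or knockout 3, and Ell2, a super elongation complex subunit, fell by 0.57.

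Of 31 tested forkhead genes out of 33 in the table, 9 were higher (29.0%) and 0 lower, with 4 higher without knockout 2. The shares of all genes were 9.90% higher and 10.7% lower. Foxo6 had 1584, 2043 and 1709 normalized counts in knockout islets and 480, 281 and 390 in control islets and rose by 2.24. Foxp4 had 4340, 4890 and 4527 in knockout islets and 2563, 2122 and 2412 in control islets and rose by 0.96. Foxn3 rose by 0.69. Of 39 tested nuclear receptor genes out of 45 in the table, 11 were higher (28.2%) and 3 lower (7.69%). The higher genes numbered 6 without control 2 and 4 without knockout 2. The oestrogen receptor gene Esr1 had 388, 461 and 383 in knockout islets and 55.9, 101 and 77.1 in control islets, a 5.34-fold rise (log2 fold change 2.42, adjusted p = 6.92e-04). Cre ER carries an oestrogen receptor domain, and whether reads of the transgene are among those of Esr1 was not tested. In male islets the log2 fold change of Esr1 was -0.07, and the difference between the sexes was not called (2.49, limma, adjusted p = 0.734). Rara, a retinoic acid receptor, had 1047, 1033 and 994 in knockout islets and 419, 449 and 456 in control islets and rose by 1.21. Rorb, a retinoid-related orphan receptor, fell by 2.12.

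Other transcription factors were among the largest changes. Tox3, an HMG-box factor, had 5194, 6807 and 4962 normalized counts in knockout islets and 1331, 1093 and 1800 in control islets and rose by 2.02. Bend5, a factor with a BEN domain, rose by 2.11. Bhlha15 (Mist1), which scales up secretory machinery in acinar and other secretory cells, had 386, 391 and 418 in knockout islets and 2191, 2419 and 1820 in control islets, a difference of -2.42 ± 0.13 on the log2 scale (standard error, adjusted p = 1.82e-04), or a 5.34-fold fall. Of the 17 acinar markers above, 0 were called, but 15 were called lower without control 2 and 13 with DESeq2. Their summed level was 564943 to 786376 normalized counts in knockout islets and 791296 to 2209450 in control islets. Their part in the fall of Bhlha15 was not tested. Ovol2, a zinc finger factor that keeps cells epithelial, had 359, 480 and 185 in knockout islets and 2216, 2065 and 1211 in control islets and fell by 2.48. Pax4, a factor of endocrine progenitors in the mouse pancreas, had 37, 25 and 31 reads in knockout libraries and 0 in each control library. Its knockout level was 32.2, 27.7 and 25.8 normalized counts, and no fold is given because no control library held a read. Of the 24631 genes in the female table, before the limit on the mean, 55 had 0 reads in the 3 control libraries. In the 3 knockout libraries 19 had 0, of which the highest were immunoglobulin segments with reads mainly in control 2.

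**Figure D4:**
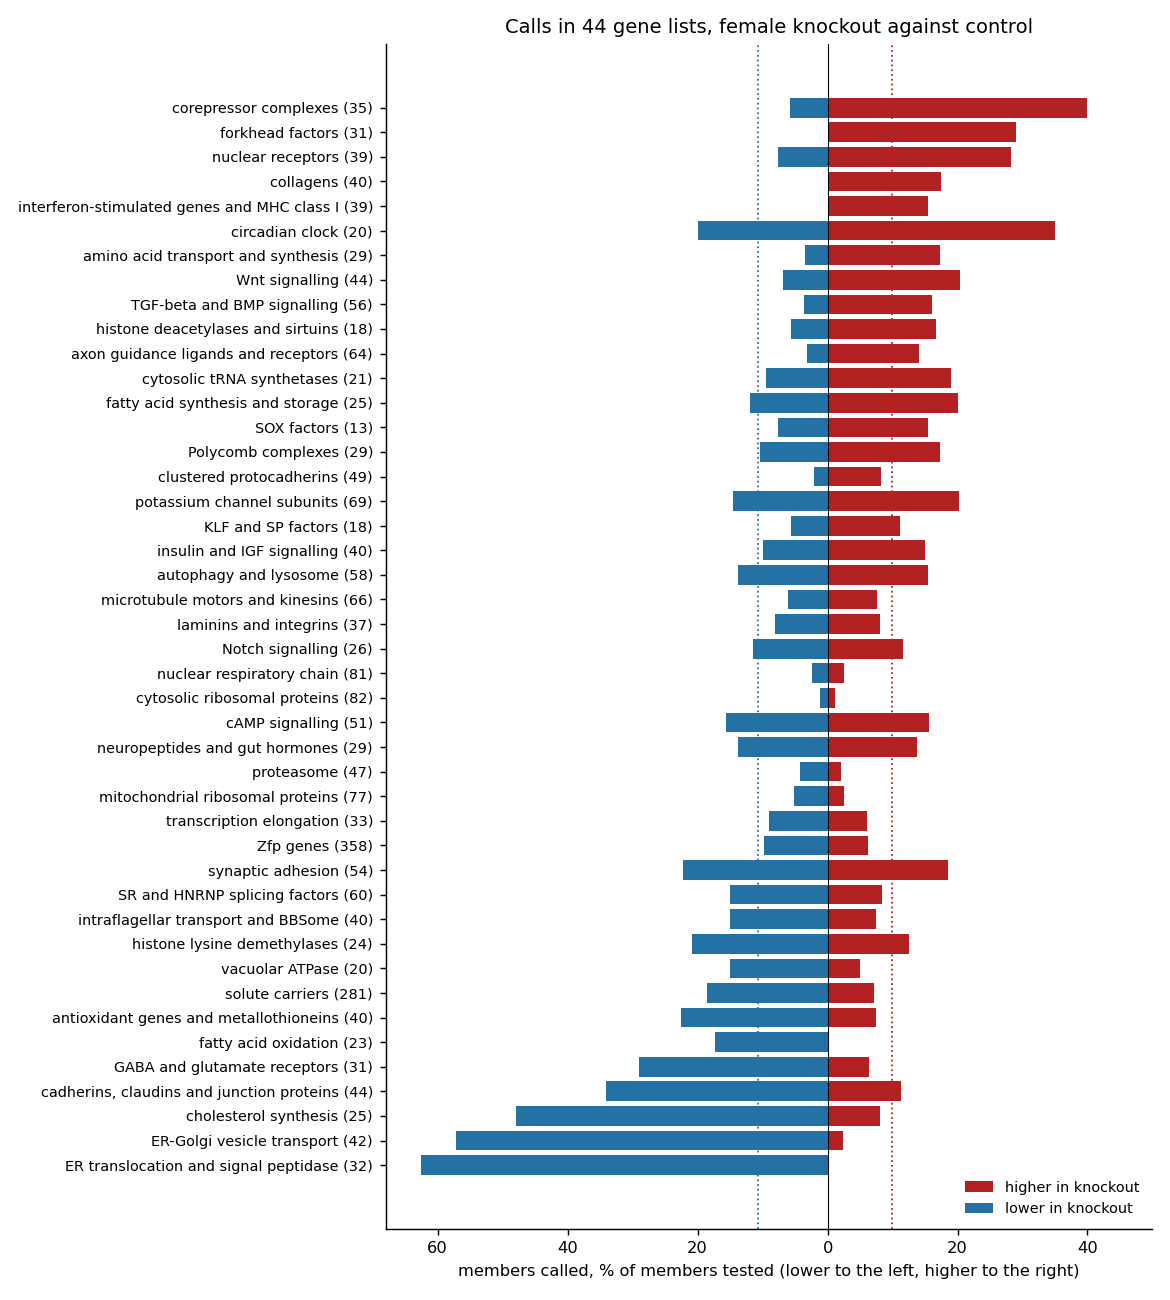
Members called higher (red, right) or lower (blue, left) in female knockout islets, in percent of the members tested (number in brackets), for 44 gene lists; the dotted lines mark 9.90% higher and 10.7% lower among all tested genes. Corepressors reach 40.0% higher, and ER translocation and ER to Golgi transport reach 62.5% and 57.1% lower.

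Other large rises at mid to high levels were seen for enzymes and signalling proteins. Pcsk6, a proprotein convertase that cleaves TGF-beta family precursors, had 2025, 2107 and 2966 normalized counts in knockout islets and 654, 592 and 594 in control islets and rose by 1.93. Akr1c14, a steroid-converting reductase, had 1542, 2040 and 2090 in knockout islets and 646, 452 and 510 in control islets and rose by 1.82. Ust, a sulfotransferase of glycosaminoglycans, had 1073, 1147 and 910 in knockout islets and 257, 327 and 302 in control islets and rose by 1.82. Rasd2, a small GTPase, rose by 2.22.

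Among large falls, Crybb3, a crystallin, had 939, 794 and 653 normalized counts in knockout islets and 5216, 3667 and 3676 in control islets and fell by 2.39. Tmem215, a membrane protein of the ER, had 2339, 2869 and 2042 in knockout islets and 13768, 11898 and 9529 in control islets and fell by 2.28. Mfsd6l fell by 2.14 and Dapl1 by 2.15. Gm38070, which lies over Il1r1, had 12219, 9079 and 9106 in knockout islets and 51592, 52555 and 51315 in control islets and fell by 2.37, and Il1r1 averaged 15094 in knockout islets and 41924 in control islets. Reads of this overlapping pair cannot be assigned to either gene with certainty. The immunoglobulin segment Igkv14-126 had a log2 fold change of -7.34, with 0, 1.11 and 1.67 in knockout islets and 44.5, 3490 and 150 in control islets. Its call was lost without control 3 or any knockout library.

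Metallothioneins, small proteins that bind zinc and copper, fell further than other antioxidant genes. Mt1 had 6127, 7374 and 4215 normalized counts in knockout islets and 49352, 47869 and 30439 in control islets, a 7.23-fold fall (log2 fold change -2.85, adjusted p = 9.51e-04). Mt2 had 57.4, 34.3 and 13.3 in knockout islets and 842, 329 and 278 in control islets, a 13.8-fold fall. Of 40 tested antioxidant and metallothionein genes 9 were lower (22.5%) and 3 higher (7.5%), beside 10.7% and 9.90% of all genes. The lower genes numbered 5 without control 2, 5 without knockout 1, 3 without knockout 2 and 3 without knockout 3. Srxn1, which repairs oxidized peroxiredoxins, fell by 1.21. The higher genes were Nqo1, a quinone reductase, at 1.16, Nfe2l2, the factor NRF2 of the antioxidant response, at 0.54, and Gclm, of glutathione synthesis, at 0.46, and their calls held in all fits without a library.

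Cholesterol synthesis genes were called lower more often than higher. Of 25 tested, 12 were lower (48%) and 2 higher (8%), with a median log2 fold change of -0.34, and 9 to 11 were lower in the fits without a library. The shares of all genes were 10.7% lower and 9.90% higher. Pmvk, a kinase of the mevalonate pathway, had 1844, 1753 and 1651 normalized counts in knockout islets and 4610, 3758 and 3310 in control islets and fell by 1.14. Ebp, a sterol isomerase, fell by 0.83. Sqle, squalene epoxidase, had 6188, 6543 and 6484 in knockout islets and 11999, 11858 and 10062 in control islets and fell by 0.82. Srebf2, which codes for the SREBP2 factor that drives these genes, rose by 0.50, a call lost without control 2, knockout 1 or knockout 2. Tm7sf2, a sterol reductase, rose by 0.63, a call lost without control 2 or knockout 2.

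Of 25 tested genes of fatty acid synthesis and storage 5 were higher (20%) and 3 lower (12%), beside 9.90% and 10.7% of all genes. The higher genes of this list numbered 1 without control 2, 1 without knockout 2 and 2 without knockout 3. Dgat2, which forms triglycerides, had 509, 400 and 433 normalized counts in knockout islets and 181, 164 and 230 in control islets and rose by 1.22, while Fasn, fatty acid synthase, fell by 0.51 and Elovl6 by 0.73. Ppargc1a, a coactivator of mitochondrial and oxidation genes, had 61.8, 52.0 and 27.5 in knockout islets and 161, 232 and 137 in control islets and fell by 1.93. Glul, glutamine synthetase, had 35512, 38274 and 27427 in knockout islets and 19179, 19267 and 20786 in control islets and rose by 0.76, and Slc7a5, the large neutral amino acid transporter, rose by 0.89.

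In the fit of all 6 libraries, complexes that all cells use had fewer calls than the 20.6% of all genes, which turned for the ribosome and the respiratory chain without control 1. Of 82 tested cytosolic ribosomal protein genes, 1 was higher (Rpl7) and 1 lower (Rpl10), and both calls were lost without control 2 and without each knockout library. Without control 1, 20 were higher and 0 lower, and under quantile scaling 15 were higher and 0 lower. Of 81 nuclear genes of the respiratory chain, 2 were higher and 2 lower, with 16 higher without control 1, 0 or 1 higher in the other fits without a library, 4 lower without control 3 and 1 lower without knockout 2 or knockout 3. Of 47 tested proteasome genes 1 was higher, Psmb9 of the immunoproteasome, and 2 were lower, with 6 higher without control 1 and 0 lower without control 2 or any knockout library. Control 1 also had the highest insulin share of reads, 15.9%, against 10.5% to 10.8% in knockout libraries and 11% and 13.3% in the other control libraries.

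Clock genes were called in both directions. Dbp, Hlf and Nr1d1 are output and repressor genes driven by the CLOCK and BMAL1 pair, and the labels used here give no time of day at isolation. Of 20 tested clock genes, 7 were higher (35%) and 4 lower (20%), and 2 were lower without control 2 or any knockout library. Among all tested genes 9.90% were higher and 10.7% lower. Dbp had 1755, 1953 and 2333 normalized counts in knockout islets and 558, 362 and 812 in control islets and rose by 1.87. Nr1d1 had 3821, 3536 and 3544 in knockout islets and 1237, 1478 and 2009 in control islets and rose by 1.23. Hlf had 832, 877 and 1252 in knockout islets and 340, 326 and 389 in control islets and rose by 1.47. The repressor gene Cry1 had 835, 761 and 668 in knockout islets and 1374, 1780 and 1127 in control islets and fell by 0.90. In male islets the log2 fold changes were 1.67 for Dbp, 1.18 for Nr1d1, 1.06 for Hlf and -1.39 for Cry1.

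Genes of signalling pathways were called in both directions. Of 40 tested insulin and insulin-like growth factor (IGF) signalling genes, 6 were higher and 4 lower, and 10 were higher without control 3 or under quantile scaling. These are 15% higher and 10% lower, close to the shares of all genes. Irs1, the first docking protein, had 162, 160 and 146 normalized counts in knockout islets and 352, 536 and 632 in control islets and fell by 1.65. The receptor gene Igf1r had 9680, 10555 and 10568 in knockout islets and 20155, 19146 and 16693 in control islets and fell by 0.86, Irs2 fell by 0.79 and Pik3r1 by 0.59. Among the higher genes, Grb14 and Inppl1, both known to dampen insulin signalling, rose by 1.03 and 1.04.

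Of 44 tested Wnt genes out of 52 in the table, 9 were higher (20.5%) and 3 lower (6.82%). The higher genes numbered 4 without control 2, 4 without knockout 2 and 5 without knockout 3. Among all tested genes 9.90% were higher and 10.7% lower. The ligand gene Wnt10a rose by 1.98 and the inhibitor gene Dkk2 by 1.14. The agonist gene Rspo2 had 12.2, 5.53 and 10.8 normalized counts in knockout islets and 68.3, 67.4 and 55.9 in control islets and fell by 2.68. Of 56 tested TGF-beta and BMP genes out of 60 in the table, 9 were higher (16.1%) and 2 lower (3.57%). The higher genes numbered 5 without control 2, without knockout 2 or without knockout 3. The lower genes numbered 0 without knockout 1 and 1 without control 1, control 2, knockout 2 or knockout 3. Gdf11, a ligand that restrains endocrine progenitors in the mouse pancreas, had 499, 454 and 318 in knockout islets and 135, 137 and 83.8 in control islets and rose by 1.84. Ski, which represses SMAD targets, rose by 0.69. Among Notch genes, Hes6 rose by 0.92 and the ligand gene Jag2 fell by 0.88.

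Junction genes fell more often than they rose. Of 44 tested cadherin, claudin and junction genes out of 47 in the table, 15 were lower (34.1%) and 5 higher (11.4%). Without any 1 of the knockout libraries 3 were higher. The shares of all genes were 10.7% lower and 9.90% higher. Gjd2, connexin 36, which joins beta cells electrically, had 1712, 2159 and 2762 normalized counts in knockout islets and 6901, 6290 and 6461 in control islets, a 3.02-fold fall (log2 fold change -1.59, adjusted p = 8.61e-04). Cldn7 had 2747, 2788 and 1925 in knockout islets and 8194, 7924 and 6754 in control islets and fell by 1.63, and Cldn3 fell by 1.16. Cdh7 had 238, 248 and 323 in knockout islets and 68.3, 61.1 and 80.5 in control islets and rose by 1.93, and N-cadherin (Cdh2) rose by 0.72.

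Collagen genes were called in 1 direction, with 7 higher (17.5%, beside 9.90% of all genes) and 0 lower of 40 tested. In the fits without a library 5 or 6 were higher, and 1 was lower without control 3. Col8a2 had 138, 167 and 153 normalized counts in knockout islets and 19.7, 8.42 and 25.7 in control islets and rose by 3.15. Col11a2 had 1675, 1825 and 1629 in knockout islets and 548, 567 and 828 in control islets and rose by 1.42, and Col9a2 rose by 1.25. These are short-chain and cartilage types. The fibroblast marker Col1a1 rose by 0.90, a call held without knockout 2 and lost without any other library. The summed level of 9 stellate and fibroblast markers was 8134 to 13566 in knockout islets and 8380 to 14276 in control islets, which overlap.

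Of 54 tested synaptic adhesion genes out of 58 in the table, 10 were higher (18.5%) and 12 lower (22.2%). These numbers were 6 and 7 without control 2 and 6 and 6 without knockout 2. Among all tested genes 9.90% were higher and 10.7% lower. Clstn3, calsyntenin 3, had 392, 435 and 380 normalized counts in knockout islets and 1776, 2153 and 1272 in control islets and fell by 2.07. Slitrk6 had 731, 809 and 997 in knockout islets and 2171, 2728 and 2988 in control islets and fell by 1.64. Cntn4 rose by 2.1, and Igsf10 had 124, 135 and 150 in knockout islets and 34.2, 36.8 and 41.4 in control islets and rose by 1.84. Of 64 tested axon guidance genes out of 68 in the table, 9 were higher (14.1%) and 2 lower (3.1%). The higher genes numbered 3 without control 2, 4 without knockout 1 and 4 without knockout 2. The lower genes numbered 0 without control 2 or knockout 2 and 1 without control 1, control 3 or knockout 3. The repellent gene Slit1 had 114, 129 and 113 in knockout islets and 35.2, 31.6 and 33.5 in control islets and rose by 1.79. The receptor gene Epha7 rose by 1.24.

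Neighbours of the deleted and the Cre-driving gene were examined within 1 Mb. Of the 9 genes tested near Rnf20, Mrpl50 fell by 0.37 and Pgap4 by 0.52, and both calls were lost without control 2 and without each knockout library. Near Pdx1, Pdx1 itself had 1554, 2104 and 1793 normalized counts in knockout islets and 4475, 3230 and 3762 in control islets and fell by 1.07. Gm27033 fell by 1.14, and Plut, a non-coding RNA that overlaps Pdx1, by 0.81, a call lost without any control library or without knockout 1 or knockout 3. Farther out, Usp12, Gtf3a, Polr1d and Pan3 rose by 0.38 to 0.55 and Mtus2 fell by 0.72, calls that were each lost in at least 4 of the 6 fits without a library.

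The last comparison asked whether the knockout effect differed between females and males. A sex by genotype interaction was fitted to 12 libraries and to the 17330 genes that passed the limit in both tables, with 3 male knockout and 3 male control libraries of the same genotypes. In this test 19 genes were called (0.110%), and in all 19 the log2 knockout effect was more positive in females. Among the 1409 genes with an unadjusted p under 0.05, 693 were more positive and 716 more negative in females. Calls in the other direction appeared in some fits, with 5 of 20 without female control 1 and 3 of 18 without male control 2. Of the 19, 7 were called higher in females and 12 were not called there, while all 19 had negative log2 fold changes in males, between -2.43 and -0.55. Steap1, a metalloreductase, had 384, 232 and 295 normalized counts in female knockout islets and 115, 140 and 182 in female control islets, and 84.0, 78.8 and 57.7 in male knockout islets and 275, 487 and 466 in male control islets. Its effect was 3.48 log2 units higher in females (standard error 0.41, adjusted p = 0.0226). Apol9b, an interferon-induced gene, differed by 2.58 and Cxcl10, a chemokine induced by interferon gamma, by 2.47. Genes of amino acid synthesis and of the stress response that ATF4 drives were also among the 19, such as Trib3 (1.76), Ppp1r15a (1.73), Pycr1 (1.65) and Shmt2 (1.43), besides Tap1 (1.31), H2-T22 (1.21) and H2-Q4 (1.11) of antigen presentation. Ppp1r15a, for example, had a log2 fold change of 0.23 in females (limma, adjusted p = 0.326) and -1.50 in males. No gene was called without female control 2, any 1 female knockout library, male control 3, male knockout 1 or male knockout 3, and 931 to 1452 genes had an unadjusted p under 0.05 in these fits. Without male control 1, 53 genes were called. Male control 2 had the fewest reads of all libraries, 19759712, and without it 18 genes were called, 13 of them among the 19. Counts of the male table were scaled separately from those of the female table, so levels are compared only within a sex.

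**Figure D5:**
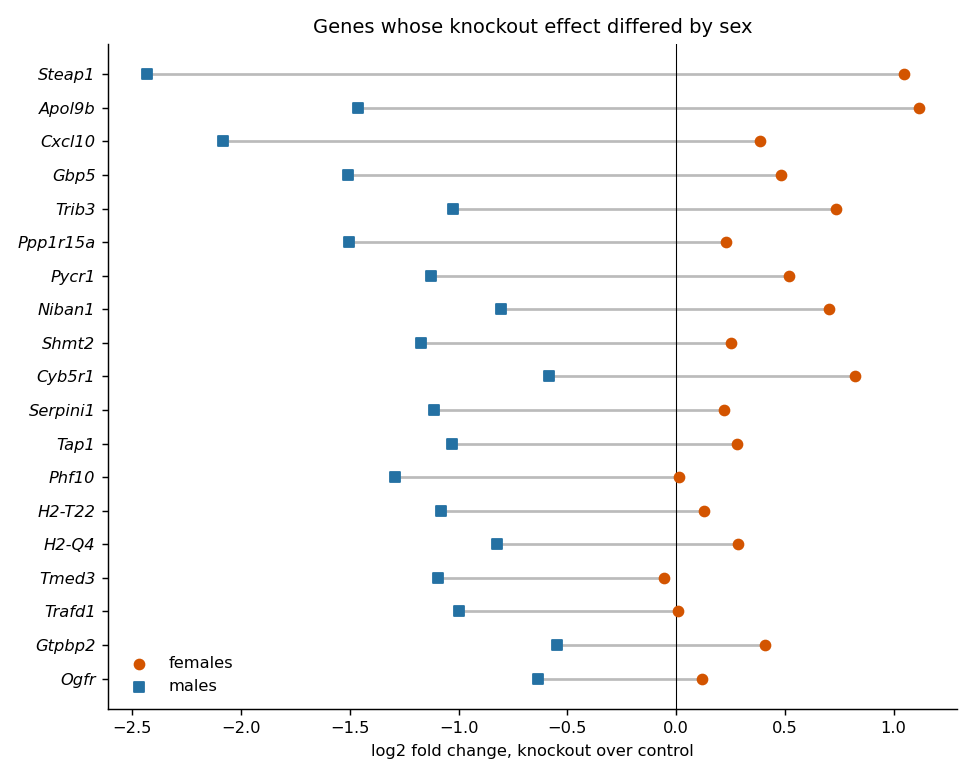
Log2 fold change, knockout over control, in female (circles) and male islets (squares) of the 19 genes whose knockout effect differed by sex, ordered by the difference. The female value lies to the right of the male value in every gene, and the widest gap, 3.48 log2 units, is that of Steap1.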

How the data were processed

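Islet RNA was purified with TRIzol and RNeasy, per the labels' protocols, and sequenced in 12 libraries, 3 per sex and genotype. The submitters' processing notes name FastQC 0.11.9, Trim Galore 0.6.7, STAR 2.7.3a, featureCounts and the build GRCm39 (mm39), while the strand setting is not given in the sources used here. The authors deposited normalized counts per gene (a signal scaled by size factors, separately per sex), with log2 fold changes and p-values of their own comparison. The authors' deposited table gives 4371 genes with an adjusted p below 0.05, and 3672 of these were also called here. The female table has 24710 lines, of which 79 repeat a gene and were used once.

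Every normalized count deposited by the authors was a whole multiple of 1 read (100.0% within 0.001 of a read), so reads were recovered for depth and for edgeR 4.0.16 and DESeq2 1.42.0. The main test was limma 3.58.1 with a trend on log2(normalized count + 1) in R 4.3.3, in genes with a mean of at least 10. Adjusted p-values are Benjamini-Hochberg values over all tested genes, two-sided, with a threshold of 0.05, and log2 fold changes understate differences of low genes. Fits without a library still hold the other 5 female libraries, or 11 of all 12 for the sex difference. The scripts were tested on simulated data.

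The members, gene lists and rules were chosen with earlier results of these data known, and 3 lists were added after values had been seen. Named genes were those with the largest changes at or above the median level without overlap (15 per direction), the smallest p (5 per direction) and the highest level (10), called list members (up to 4 per direction), genes at 0 reads in a group, and neighbours within 1 Mb. X-linked genes, and a few list members outside the rule, were named after their values were seen. Promoter and microRNA sequences came from RefSeq tables of GRCm38.p6, matched by symbol, and no coordinate was converted between builds. Results of a few genes are not reported here.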

Additional observations from a re-analysis of the deposited data

Results flagged for a closer look

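The knockout effect on 19 genes differed between female and male islets by a test of the difference itself, the interaction of sex and genotype. The values are the log2 knockout effect in females minus that in males, and adjusted p-values from limma ran from 0.0226 to 0.0476. Steap1 differed by 3.48. Genes induced by interferon or of antigen presentation were Apol9b (2.58), Cxcl10 (2.47), Gbp5 (1.99), Tap1 (1.31), H2-T22 (1.21), H2-Q4 (1.11) and Trafd1 (1.01). Genes known from amino acid synthesis and the integrated stress response were Trib3 (1.76), Ppp1r15a (1.73), Pycr1 (1.65), Niban1 (1.51), Shmt2 (1.43) and Gtpbp2 (0.95). The others were Serpini1 (1.34), Cyb5r1 (1.41), Tmed3 (1.04), Phf10 (1.31) and Ogfr (0.75). Of the 12 fits that leave out a library, 7 called no gene, so none of the 19 calls held in all of them. These fits hold fewer libraries, so a lost call does not show that a difference rests on 1 library. The replicate block left 0 calls.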

How the results depend on the processing

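Among 18142 genes, 3745 were called (1796 higher and 1949 lower). Fits without a library called 1847 to 3760 genes, with 779 to 1852 higher and 1068 to 2000 lower, so single libraries, most of all knockout 2 and control 2, decided many calls. DESeq2 called 4399 and edgeR 3734, within 1.5 times of the main count, as were the counts with other pseudocounts, minimum levels or quantile scaling. The sex difference called 19 genes, 25 with edgeR, 29 at a mean of at least 50, 38 under quantile scaling and 0 to 53 without a library. Acly reversed to 0.17 under quantile scaling (limma, adjusted p = 0.290), and the cause was not tested. The labels state no pairing of the libraries. Same-numbered knockout and control libraries had correlations of -0.04, -0.28 and -0.13 of their deviations from the group means. Those of differently numbered libraries ran from -0.11 to 0.25. Such weak values, from 3 libraries per group, cannot decide whether libraries were paired. With the replicate block 3209 genes (1477 higher and 1732 lower) were called, and 0 for the sex difference (limma, 1421 at an unadjusted p under 0.05). With 3 libraries per group, small differences and genes near 10 normalized counts are the least precise.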
